A study of Homo sapiens with 3 samples.

Results

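The genes of laminin-332 and of the hemidesmosome, with those of laminin-511, were followed by RNA-seq in the human breast cancer line MCF10Ca1h. There were 9 of them, taken by symbol, and each symbol matched 1 of the 56632 gene IDs in the deposited tables. They were LAMA3 (ENSG00000053747) and LAMB3 (ENSG00000196878) for laminin-332. For the hemidesmosome they were COL17A1 (ENSG00000065618), DST (ENSG00000151914), PLEC (ENSG00000178209) and CD151 (ENSG00000177697). For laminin-511 they were LAMA5 (ENSG00000130702), LAMB1 (ENSG00000091136) and LAMC1 (ENSG00000135862). All 9 genes were above the minimum of 1 CPM (read counts scaled to library size) in every library, so none was lost to a filter.

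Each of the 3 groups was 1 library. GSK484 was from cells given the PADI4 inhibitor GSK484 for 72 h, CON from cells kept for 72 h with a control compound, and NT from untreated cells with no time given. PADI4 is an enzyme that turns arginine into citrulline in histones and other proteins, and the study's title asks how it bears on breast cancer stem cells. The labels give no dose, and the control is GSK107 in their treatment text but GSK106 in the name of its table, so it is called the control compound. All groups share the line, which belongs to the MCF10 breast epithelial series, and a medium of DMEM/F12 with 5% horse serum. The labels do not say whether the libraries came from separate cultures. In such bulk samples, fewer cells of a type and less RNA per cell cannot be told apart.

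Laminins are secreted trimers of an alpha, a beta and a gamma chain that build the basement membrane, the sheet under epithelia. Laminin-332, to which LAMA3 gives the alpha and LAMB3 the beta chain, anchors stratified and glandular epithelia, including the basal cells of the breast. On the cell side, the hemidesmosome ties it to keratin filaments. The integrin of the ITGA6 and ITGB4 products binds the laminin, plectin (PLEC) and the epithelial product of DST link it to keratin, type XVII collagen (COL17A1) crosses the membrane beside it, and the tetraspanin CD151 associates with laminin-binding integrins. Laminin-511, of the LAMA5, LAMB1 and LAMC1 products, is a widespread laminin of epithelial and vascular basement membranes. Loss of laminin-332 or of hemidesmosome proteins is known to cause skin blistering in inherited disease.

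Total expected counts were 77220120 in GSK484, 92980847 in CON and 70555229 in NT. All 7 epithelial markers reached 1 CPM, with summed levels of 14022 CPM in GSK484, 13613 CPM in CON and 13213 CPM in NT. Of the fibroblast markers, COL3A1, DCN and LUM were at 0 in all libraries, 1 of 6 reached 1 CPM, and the list summed to 7.80 CPM in GSK484, 6.82 CPM in CON and 6.06 CPM in NT. Of the leukocyte markers, PTPRC and CD3E were at 0 in all libraries, and CD68 had 3.70 CPM in GSK484, 3.57 CPM in CON and 4.11 CPM in NT. The endothelial marker CDH5 had 0.937 CPM in GSK484, 1.57 CPM in CON and 0.968 CPM in NT, and VWF had at most 0.0219 CPM. The part of these markers in the results was not tested. With 1 library per group there was no test between groups and no spread between replicates, so each difference is one between single libraries, and each interval is a 95% interval for counting error only. In place of a test, a rule of size was used: a gene is called here if its log2 fold is at least 0.32 in size, its larger level is 1 CPM or more and 0 lies outside its counting interval.

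A RefSeq promoter entry (GRCh38.p14) was used for 7 of the 9 genes, with 11 annotated starts in all, and no window of PLEC or CD151 is reported here. The 250 bases before 4 of these starts are shown. LAMA3 and LAMB3 are shown because they encode chains of the same trimer, and DST because it had the widest range over the libraries and has starts of unlike base composition. Capitals mark matches on either strand to the AP-1 motif TGANTCA, the GC box GGGCGG or the TATA box TATAAA, and no matches overlap in these windows. Each sequence runs 5′ to 3′ on the gene's strand.

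LAMA3, plus strand, chr18:23872770-23873019: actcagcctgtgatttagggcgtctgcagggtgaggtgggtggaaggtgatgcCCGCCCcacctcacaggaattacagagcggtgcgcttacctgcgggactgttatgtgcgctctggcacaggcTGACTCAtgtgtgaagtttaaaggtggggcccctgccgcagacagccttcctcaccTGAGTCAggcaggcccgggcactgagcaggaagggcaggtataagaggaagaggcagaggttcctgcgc

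LAMB3, start 3, minus strand, chr1:209651375-209651624: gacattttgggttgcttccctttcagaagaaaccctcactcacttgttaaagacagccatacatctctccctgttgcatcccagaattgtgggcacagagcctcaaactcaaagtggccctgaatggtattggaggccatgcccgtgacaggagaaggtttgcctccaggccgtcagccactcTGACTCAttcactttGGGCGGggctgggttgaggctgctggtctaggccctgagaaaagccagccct

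DST, start 1, minus strand, chr6:56954831-56955080: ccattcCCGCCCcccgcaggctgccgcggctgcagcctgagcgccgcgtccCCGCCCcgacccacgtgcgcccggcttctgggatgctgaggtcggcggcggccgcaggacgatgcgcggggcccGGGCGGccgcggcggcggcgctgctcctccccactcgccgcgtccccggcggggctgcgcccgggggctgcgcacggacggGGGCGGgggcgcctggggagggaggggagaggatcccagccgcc

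DST, start 3, minus strand, chr6:56642890-56643139: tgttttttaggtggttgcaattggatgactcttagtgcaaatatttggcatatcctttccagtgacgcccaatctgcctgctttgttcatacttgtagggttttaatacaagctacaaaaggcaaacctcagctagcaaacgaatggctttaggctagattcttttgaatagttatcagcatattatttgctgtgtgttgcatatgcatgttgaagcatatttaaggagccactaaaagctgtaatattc

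The LAMA3 window holds 2 AP-1 matches, starting 125 and 69 bases before the start, and 1 GC box match. The LAMB3 window shown holds 1 AP-1 match, starting 67 bases before the start, and 1 GC box match, while the windows of the other two LAMB3 starts hold no AP-1 match. The DST window at start 1 is 82.8% G or C and holds 4 GC box matches, against 37.6% and no match to any of the motifs in the window at start 3. Among all 35116 promoters of this length, 6.57% hold an AP-1 match, 42.6% a GC box match and 10.7% a TATA box match. A match describes the letters of a window and was not tested as a binding site. The deposited values are per gene, so reads from different starts of LAMB3 or DST are pooled in what follows.

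Levels of different genes were compared as TPM, which accounts for transcript length. LAMB3 and CD151 were the highest of the 9 genes, with LAMB3 at 334 TPM in GSK484, 260 TPM in CON and 278 TPM in NT, and CD151 at 331 TPM in GSK484, 328 TPM in CON and 337 TPM in NT. COL17A1, LAMA5, LAMA3 and LAMB1 lay between 96.4 and 196 TPM in every library. PLEC had 87.5 TPM in GSK484, 67.9 TPM in CON and 68.0 TPM in NT. The lowest were LAMC1, at 43.7 TPM in GSK484, 38.6 TPM in CON and 46.7 TPM in NT, and DST, at 47.6 TPM in GSK484, 26.8 TPM in CON and 64.2 TPM in NT. DST was therefore below LAMC1 in CON and above it in GSK484 and NT. Libraries were compared for each gene in CPM of the expected count, scaled with TMM factors, for which the counting interval of every member was within 1.91% of its value.

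**Figure D1:**
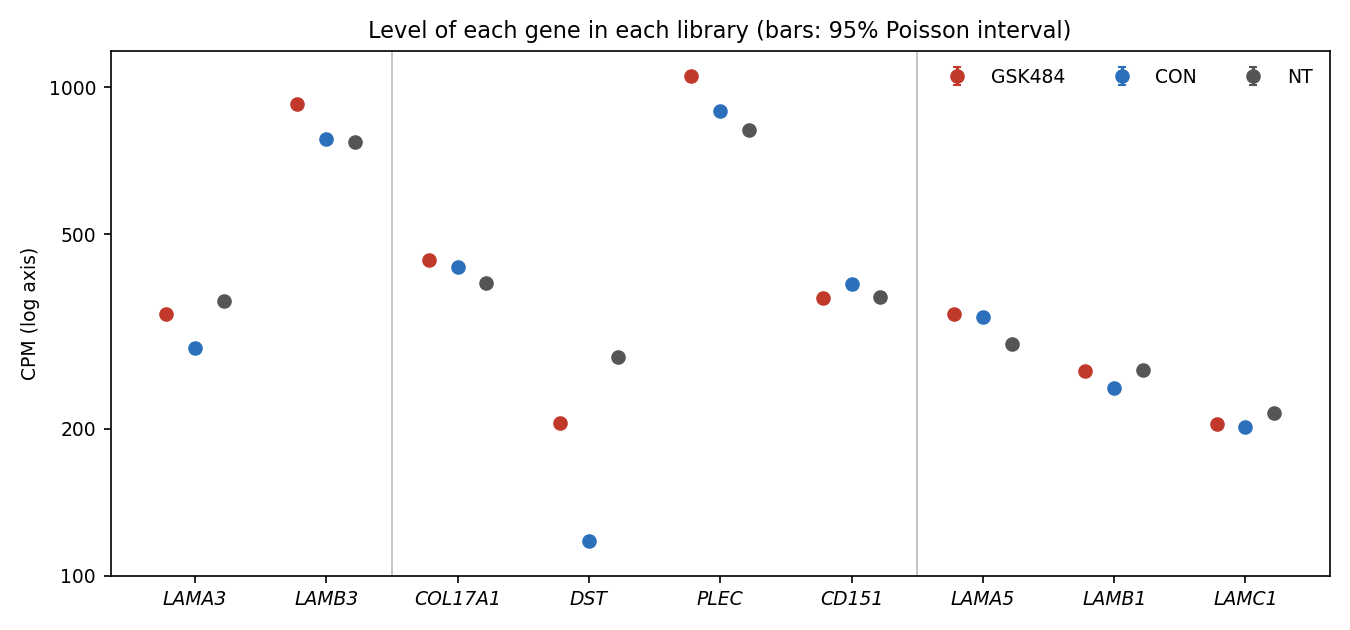
Level of each of the 9 genes in CPM (log axis), with 1 point per library in red for GSK484, blue for CON and grey for NT, and bars (mostly hidden by the points) for the 95% Poisson interval. DST spreads widest, at 205 CPM in GSK484, 117.5 CPM in CON and 280 CPM in NT, while the points of each other gene lie close together.

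LAMA3 and LAMB3, the laminin-332 genes followed here, were higher in GSK484 than in CON beyond counting error, by 1.17-fold and 1.18-fold. There was no replicate to set this against, and 30.0% of all genes of at least 50 CPM were likewise above 0. Both values were short of the rule of size, though that of LAMB3 in TPM was 0.36, past it. LAMA3, which encodes the alpha chain of this laminin, had 343 CPM in GSK484, 293 CPM in CON and 365 CPM in NT. It was thus lowest in CON and highest in NT. Its log2 fold was 0.23 (0.21 to 0.25) for GSK484 against CON, −0.09 (−0.11 to −0.06) for GSK484 against NT and −0.32 (−0.34 to −0.29) for CON against NT. The sign of the value for GSK484 against NT depends on the unit, being 0.07 on the log2(TPM + 0.1) scale. LAMB3, the beta chain found in this laminin, had 924 CPM in GSK484, 783 CPM in CON and 773 CPM in NT. It was highest in GSK484, with CON and NT close to each other. Its log2 fold was 0.24 (0.22 to 0.25) against CON and 0.26 (0.24 to 0.27) against NT. For CON against NT it was 0.02 (0.0040 to 0.04), with the opposite sign in TPM (−0.10), with total-count scaling (−0.02) and with the trend on base composition and length removed (−0.01). The value of LAMA3 for CON against NT, 1.247-fold lower in CON, lay just short of the rule.

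The 5 laminin chain genes among the 9 kept, within each laminin, the same order of TPM in every library, LAMB3 over LAMA3 for laminin-332 and LAMA5 over LAMB1 over LAMC1 for laminin-511. The ratio of LAMB3 to LAMA3 in TPM was 2.32 in GSK484, against 2.15 in CON and 2.02 in NT. In laminin-511 the gamma chain was the lowest, with a ratio of LAMA5 to LAMC1 of 3.58 in GSK484, 3.96 in CON and 2.78 in NT. Such ratios also carry the estimated transcript lengths. In counts, the genes of each of these pairs had close log2 folds for GSK484 against CON, but not in the other comparisons. For GSK484 against CON they were 0.24 (LAMB3) and 0.23 (LAMA3), and 0.03 (LAMA5) and 0.02 (LAMC1). LAMB1, also of laminin-511, had 0.12. For GSK484 against NT they were 0.26 (LAMB3) and −0.09 (LAMA3), and 0.21 (LAMA5) and −0.08 (LAMC1). For CON against NT they were 0.02 (LAMB3) and −0.32 (LAMA3), and 0.18 (LAMA5) and −0.10 (LAMC1). The alpha chains LAMA5 and LAMA3 were close, and their TPM ratio was 1.09 in GSK484, 1.26 in CON and 0.947 in NT. Among the 6 related laminin chain genes followed, 3 reached 1 CPM (LAMA1, LAMA4 and LAMB2), and 0 of them were higher or lower by the rule in any comparison, with a median log2 fold of 0.03 for GSK484 against CON. LAMB2 had 92.8 TPM in GSK484, 92.1 TPM in CON and 76.6 TPM in NT, LAMA4 lay between 28.1 and 30.2 TPM, and LAMA1, LAMA2, LAMB4 and LAMC3 were each at or below 0.64 TPM.

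**Figure D2:**
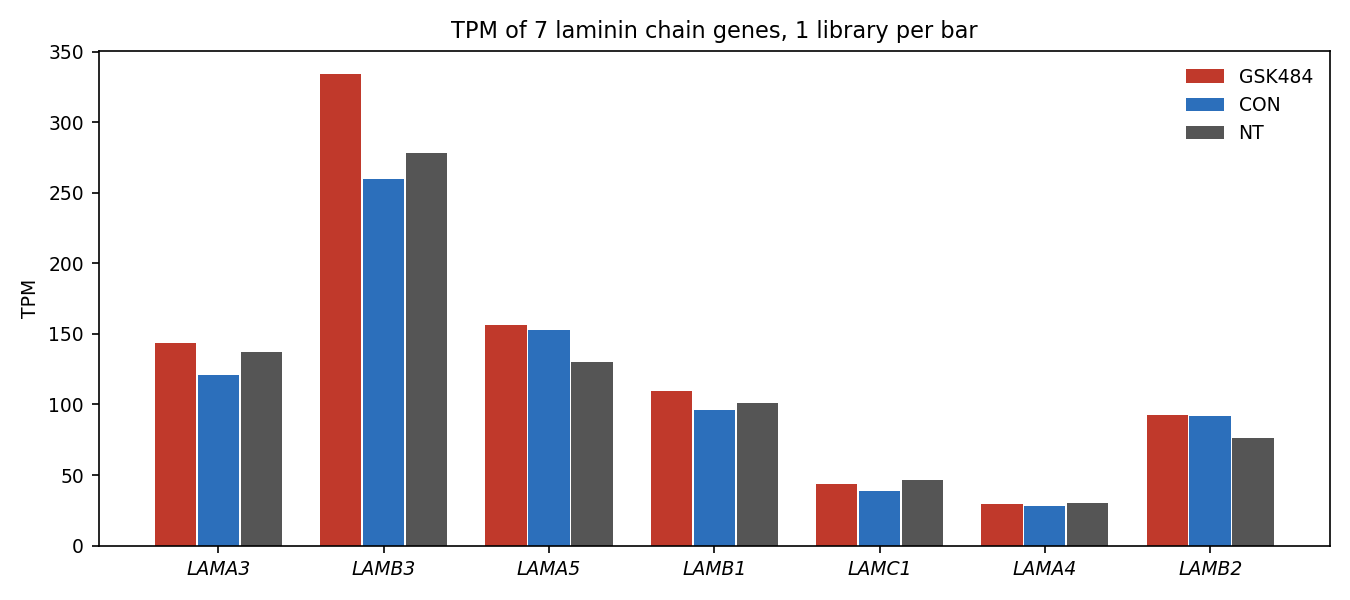
TPM of 7 laminin chain genes, with 1 bar per library in the order GSK484 (red), CON (blue) and NT (grey). LAMB3 is the tallest in every library, at 334 TPM in GSK484, 260 TPM in CON and 278 TPM in NT, and LAMA4 is the shortest.

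Among the hemidesmosome genes, DST stood apart from the rest by the width of its range. DST, whose epithelial product is a plakin linking type XVII collagen and ITGB4 to keratin, had 205 CPM in GSK484, 117.5 CPM in CON and 280 CPM in NT. CON was lowest, NT highest and GSK484 between them. The counting intervals of the 3 libraries did not overlap, which was also so for LAMA3, PLEC and COL17A1. Beyond counting error lay 72.8% of all genes of at least 50 CPM for GSK484 against CON. For GSK484 against NT it was 75.6%, and for CON against NT 80.9%. DST was 1.75-fold higher in GSK484 than in CON, a log2 fold of 0.80 (0.77 to 0.84). It was 1.36-fold lower in GSK484 than in NT, a log2 fold of −0.45 (−0.48 to −0.42). In CON it was 2.38-fold lower than in NT, a log2 fold of −1.252 (−1.29 to −1.22). These comparisons share libraries, so the value against CON and that of CON against NT both contain the low level in CON. Among all genes of at least 50 CPM, a larger absolute fold than that of DST was seen in 0.201% for GSK484 against CON, 0.624% for GSK484 against NT and 0.147% for CON against NT. Genes below 50 CPM are outside these shares, among them the genes nearest to DST in pattern, named below. The products of DST include neuronal and muscle forms beside the epithelial one, and the gene value does not separate them.

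PLEC, which encodes plectin, the plakin that binds ITGB4, had 1056 CPM in GSK484, 897 CPM in CON and 817 CPM in NT. It was highest in GSK484 and lowest in NT. Its log2 fold was 0.24 (0.22 to 0.25) against CON and 0.37 (0.35 to 0.39) against NT, or 1.29-fold higher than in NT. For CON against NT it was 0.13 (0.12 to 0.15), and close to 0 in TPM (−0.0021). COL17A1, the transmembrane collagen of the hemidesmosome, had 443 CPM in GSK484, 428 CPM in CON and 397 CPM in NT. Its log2 fold was 0.05 (0.03 to 0.07) against CON and 0.16 (0.14 to 0.18) against NT. In TPM the value against NT was 0.35, past the rule, and that for CON against NT was 0.30, against 0.11 (0.09 to 0.13) in counts. CD151 had 371 CPM in GSK484, 396 CPM in CON and 372 CPM in NT, the narrowest range of the 9 genes. Its log2 fold against CON was −0.09 (−0.12 to −0.07), and 0.02 in TPM, so its sign depends on the unit. Against NT it was −0.0035, within counting error.

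The laminin-511 genes were short of the rule of size in all 3 comparisons. LAMA5, its alpha chain, had 344 CPM in GSK484, 338 CPM in CON and 298 CPM in NT. It was lowest in NT, with a log2 fold of 0.21 (0.18 to 0.23) for GSK484 against NT and 0.18 (0.16 to 0.21) for CON against NT. Against CON its log2 fold in GSK484 was 0.03 (0.0015 to 0.05), and −0.01 with the trend on base composition and length removed. LAMB1, its beta chain, had 262 CPM in GSK484, 242 CPM in CON and 263 CPM in NT. Its log2 fold was 0.12 (0.09 to 0.14) for GSK484 against CON and −0.12 (−0.15 to −0.09) for CON against NT. LAMC1, its gamma chain and that of most laminins, had 204 CPM in GSK484, 201 CPM in CON and 216 CPM in NT. For GSK484 against CON its log2 fold was 0.02 (−0.01 to 0.05), within counting error, and against NT it was −0.08 (−0.11 to −0.05), or 0.0047 with that trend removed. Expected counts of CD151, LAMA5 and LAMB1 were not whole in every library, so some of their reads were shared out by the authors' estimate, whereas those of the other 6 genes were whole within 0.005.

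**Figure D3:**
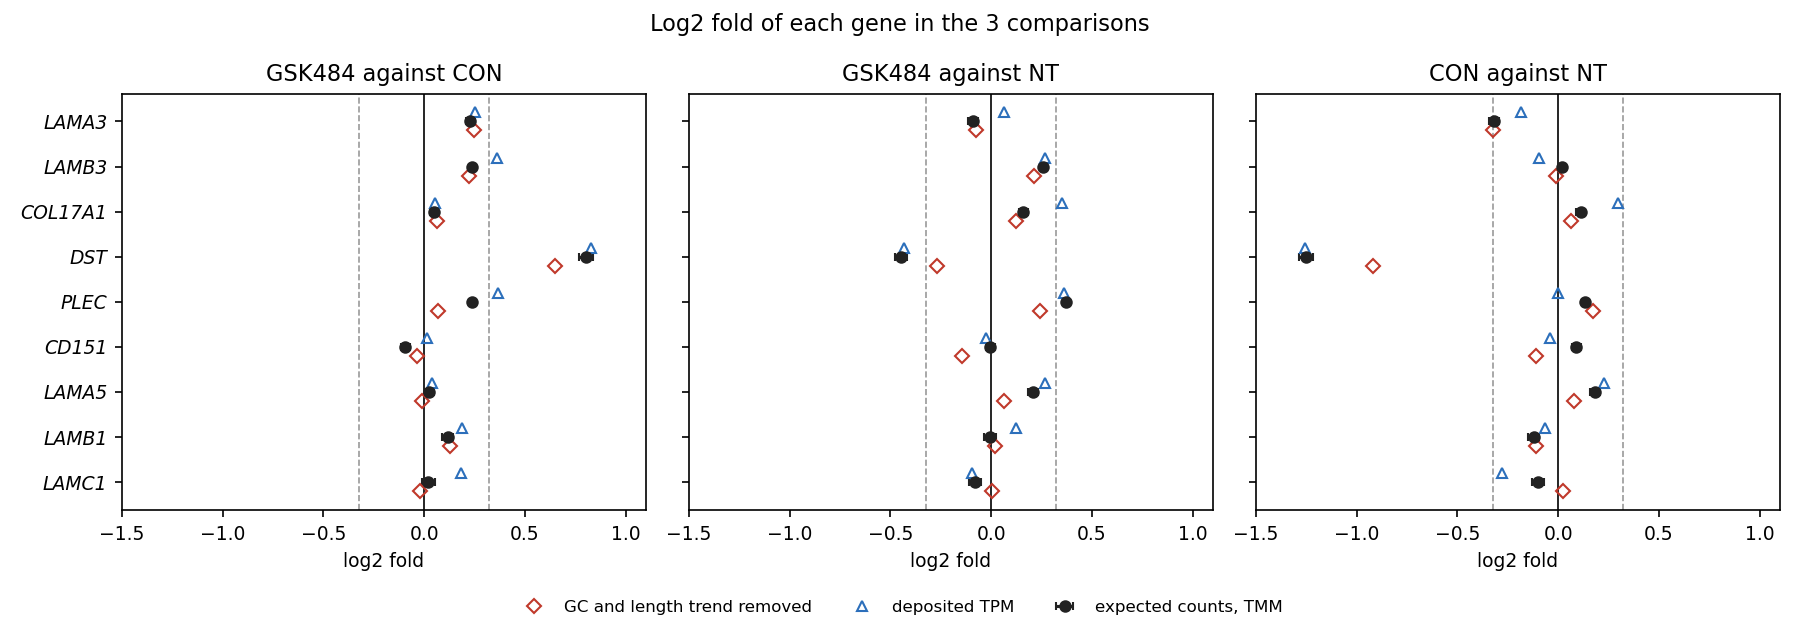
Log2 fold of the 9 genes in the 3 comparisons, with expected counts scaled by TMM (black points, bars for the 95% counting interval), deposited TPM (blue triangles) and expected counts with the GC and length trend removed (red diamonds). Dashed lines mark a log2 fold of 0.32 in size, and DST lies outside them in all 3 panels except for its trend-removed value of −0.27 for GSK484 against NT.

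By the rule of size, 1 of the 9 genes was higher (DST) and 0 were lower for GSK484 against CON, with 8.98% of 13200 genes higher and 4.48% lower. For GSK484 against NT, 1 was higher (PLEC) and 1 lower (DST), with 5.07% of 13208 genes higher and 7.46% lower. For CON against NT, 0 were higher and 1 was lower (DST), with 6.87% of 13219 genes higher and 14.6% lower. Since 1 of 9 is the smallest count above 0, these counts say little of the genes as a set. Past a 2-fold difference in either direction, 0 of the 9 genes were counted for GSK484 against CON and 0 for GSK484 against NT, with 0.462% and 0.538% of all genes, and 1 (DST) for CON against NT, with 1.67% of all genes. Since all 9 genes were above 50 CPM in every library, genes of at least 50 CPM are the closer background. Of these, 3.78% were higher and 1.31% lower for GSK484 against CON, 0.724% higher and 2.02% lower for GSK484 against NT, and 1.52% higher and 8.45% lower for CON against NT.

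Smaller differences beyond counting error were common. For GSK484 against CON, 7 of the 9 genes were above 0 and 1 (CD151) below 0 beyond counting error, and 72.8% of all genes of at least 50 CPM lay beyond it in either direction, 30.0% above and 42.8% below. For GSK484 against NT, 4 were above (LAMB3, COL17A1, PLEC and LAMA5) and 3 below (LAMA3, DST and LAMC1), with 41.6% of all genes of at least 50 CPM above and 34.0% below. In CON relative to NT, 5 were above and 4 below, with 52.7% of such genes above and 28.2% below. The median log2 fold of the 9 genes was 0.12 for GSK484 against CON (0.19 in TPM, where the median over all genes is 0.10, and 0.07 once the trend on base composition and length is removed), −0.0035 for GSK484 against NT and 0.02 for CON against NT. Over all genes compared the medians were −0.0055, −0.0042 and 0.03 in the same order. In TPM the median of the 9 genes was 0.12 for GSK484 against NT and −0.06 for CON against NT. Over all genes these TPM medians were −0.0039 and −0.08.

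Folds between these libraries moved with base composition over all genes, and DST is a gene of low GC content, at 41.2% in its longest annotated transcript. The other genes had 48.6% (LAMC1) to 67.0% (PLEC). The longest annotated transcript of DST that the deposited data list has 22431 bases, against an estimated mean of at most 5303 bases in any library. The GC content given for DST therefore need not be that of the transcripts measured. Among the 20% of genes of at least 50 CPM with the lowest GC content, the median log2 fold was 0.07 for GSK484 against CON, −0.12 for GSK484 against NT and −0.20 for CON against NT. Of these genes, 36.1% were lower in CON than in NT by the rule, and 15.8% were higher in GSK484 than in CON. Few of them differed as much as DST: for GSK484 against CON, 4 of 786 had a higher fold than DST, for GSK484 against NT 11 of 793 had a lower one, and for CON against NT 2 of 805 had a lower one. With the smooth trend of fold on GC content and effective length removed, the log2 fold of DST was 0.65 for GSK484 against CON, −0.27 for GSK484 against NT and −0.92 for CON against NT. The value for GSK484 against NT was then short of the rule, as was that of PLEC, at 0.24. For GSK484 against CON the value of PLEC became 0.07, while LAMA3 kept 0.25 and LAMB3 0.22. The parts of GC content and length in this shift of PLEC were not separated, and its effective length was 14134 bases in GSK484.

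**Figure D4:**
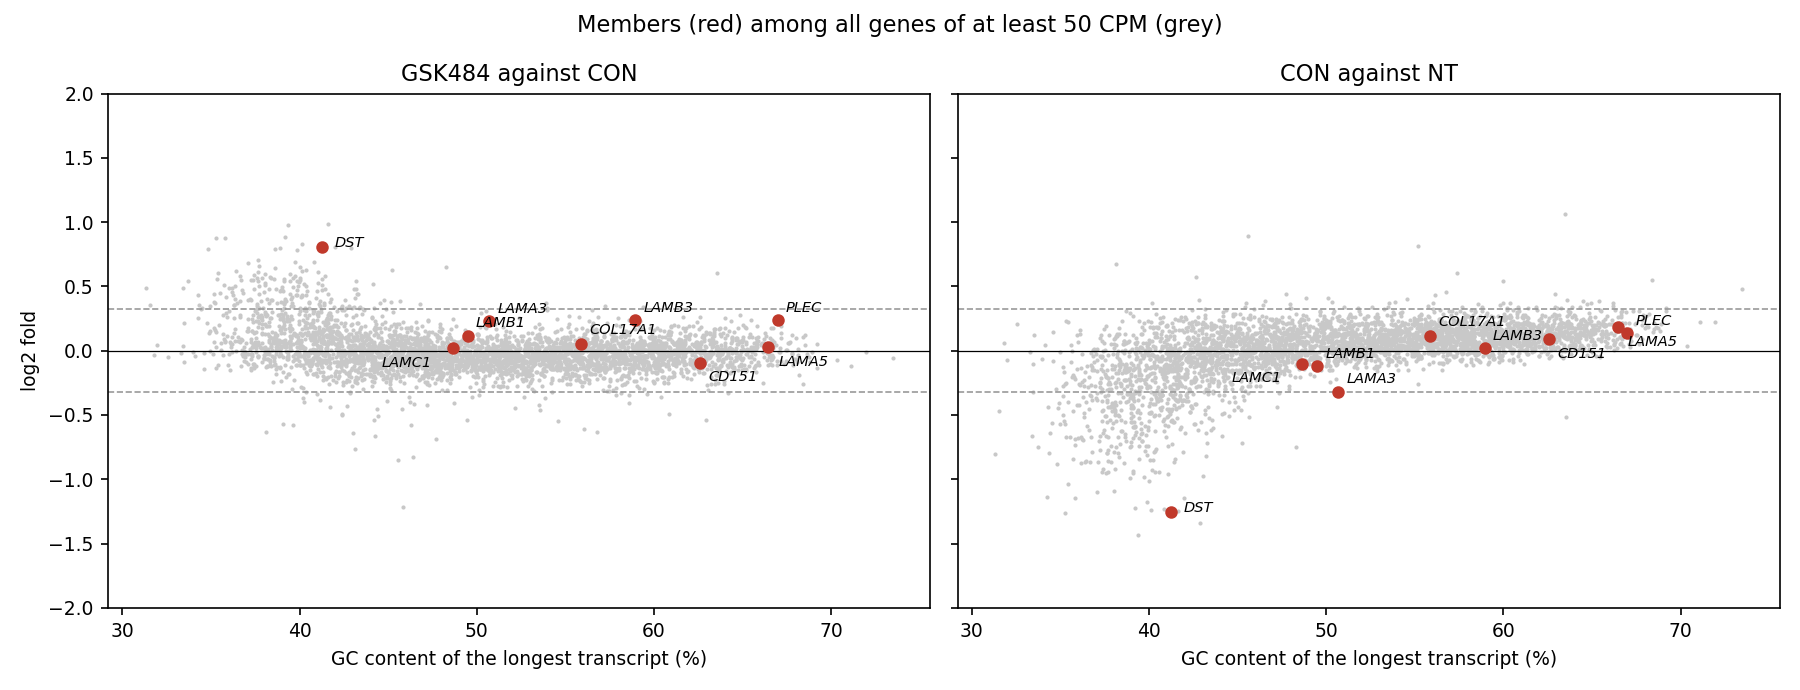
Log2 fold against the GC content of the longest annotated transcript for genes of at least 50 CPM in any library (grey), with the 9 genes in red, for GSK484 against CON on the left and CON against NT on the right. Dashed lines mark a log2 fold of 0.32 in size, and 1 of 4062 genes lies outside the axis on the right. DST sits at 41.2% GC, near the upper edge of the grey points on the left and near the lower edge on the right.

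The estimated mean transcript length of a gene, weighted by the abundance of its transcripts, differs between libraries only where the estimated mix of transcripts does. That of COL17A1 was 2819 bases in GSK484, 2631 bases in CON and 3213 bases in NT. The longest of its annotated transcripts that the deposited data list has 5689 bases. LAMA3 had 2973 bases in GSK484, 2804 bases in CON and 3309 bases in NT, far below its longest transcript of 10661 bases. Both were thus longest in NT and shortest in CON. The same order was seen in LAMA5, at 2747 bases in GSK484, 2579 bases in CON and 2878 bases in NT, in LAMB1, at 2976, 2900 and 3259 bases in the same libraries, and in DST, at 5220, 4927 and 5303 bases. LAMC1 had the opposite order, at 5639 bases in GSK484, 5832 bases in CON and 5609 bases in NT. PLEC, LAMB3 and CD151 differed by at most 177 bases between libraries. The longest listed transcript of DST has 22431 bases, so its estimated mean lay far below it in every library. These lengths carry no counting interval. They enter TPM, and LAMA3 was 0.09 lower in log2 CPM but 0.07 higher in log2 TPM in GSK484 than in NT.

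**Figure D5:**
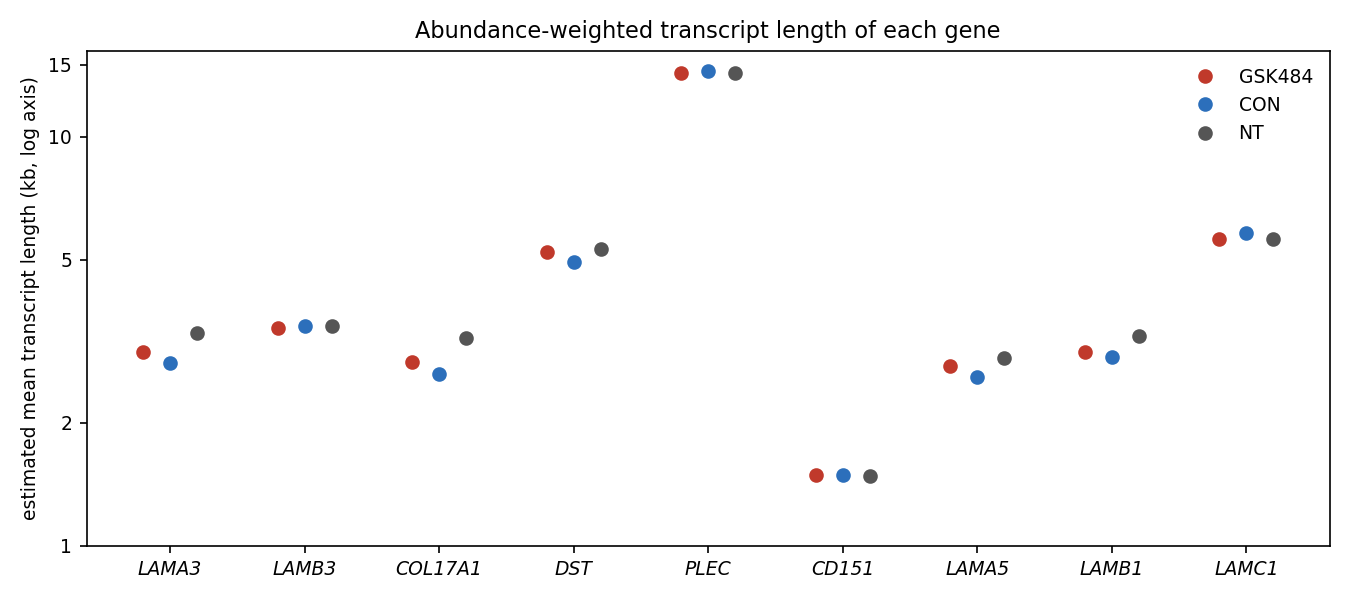
Abundance-weighted mean transcript length of each of the 9 genes (kb, log axis), with 1 point per library in red for GSK484, blue for CON and grey for NT. COL17A1, LAMA3, LAMA5 and LAMB1 are longest in NT and shortest in CON, while the points of PLEC, LAMB3 and CD151 nearly coincide.

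The laminin receptors were abundant. ITGB4 had 2802 CPM in GSK484, 2488 CPM in CON and 2303 CPM in NT, with a log2 fold of 0.17 (0.16 to 0.18) against CON and 0.28 (0.27 to 0.29) against NT. Its partner ITGA6 had 765 CPM in GSK484, 668 CPM in CON and 809 CPM in NT, with a log2 fold of 0.20 (0.18 to 0.21) against CON and −0.08 (−0.10 to −0.06) against NT. ITGB1, the beta chain of most laminin-binding integrins, had 558 CPM in GSK484, 475 CPM in CON and 664 CPM in NT. Its alpha partner ITGA2 had 84.0 CPM in GSK484, 67.6 CPM in CON and 122 CPM in NT, and DAG1, dystroglycan, had 157 CPM in GSK484, 181 CPM in CON and 178 CPM in NT. Of the 9 receptor genes, 0 were higher and 0 lower by the rule for GSK484 against CON, with a median log2 fold of 0.17 (0.09 with the trend removed). For GSK484 against NT 1 was higher (BCAM, a laminin-binding adhesion glycoprotein) and 1 lower (ITGA2), and for CON against NT 0 were higher and 2 lower (ITGA2 and ITGB1). Both calls for GSK484 against NT ended with the trend removed, where BCAM was at 0.19, against 0.325 before, and ITGA2 at −0.316, against −0.54 before. ITGA2 and ITGB1 are of low GC content, at 40.2% and 40.0%, and with the trend removed their log2 folds for CON against NT were −0.40 and −0.15, against −0.85 and −0.48 before.

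Other basement membrane genes and plakins gave few differences past the rule. Of 10 basement membrane genes that reached 1 CPM, 0 were higher and 0 lower for GSK484 against CON, with a median log2 fold of 0.15 (0.09 with the trend removed). COL7A1, the anchoring fibril collagen that lies under hemidesmosomes, had 113 CPM in GSK484, 93.5 CPM in CON and 92.9 CPM in NT, a log2 fold of 0.27 (0.23 to 0.32) against CON. It was highest in GSK484, with CON and NT within counting error of each other. COL4A2, a type IV collagen chain, had 342 CPM in GSK484, 299 CPM in CON and 308 CPM in NT. SPARC, a matrix glycoprotein, had 340 CPM in GSK484, 390 CPM in CON and 376 CPM in NT, and the low FREM2, a matrix protein of embryonic basement membranes, had 7.74 CPM in GSK484, 6.31 CPM in CON and 9.81 CPM in NT. FREM2 was the 1 gene of this list lower in GSK484 than in NT, and also the 1 lower in CON than in NT. With the trend removed its log2 fold against NT in GSK484 became −0.26, short of the rule, against −0.34 before. Of the 7 other plakin and keratin anchorage genes measured, 0 were higher and 0 lower for GSK484 against CON, with a median log2 fold of 0.15 (0.07 with the trend removed). Their highest member, KRT5, a basal keratin, had 1452 CPM in GSK484, 1212 CPM in CON and 1287 CPM in NT. EVPL, the plakin envoplakin, was higher in GSK484 than in NT by the rule, with 149 CPM in GSK484, 130 CPM in CON and 119 CPM in NT, but its log2 fold of 0.33 became 0.24 with the trend removed, short of the rule. DSP, the desmosomal plakin, had 149 CPM in GSK484, 134 CPM in CON and 165 CPM in NT, and KRT14, which pairs with KRT5, was low at 9.57 CPM in GSK484, 11.9 CPM in CON and 10.2 CPM in NT.

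Of 8 measured proteases that can cut laminin chains or type XVII collagen, 1 was higher (ADAM10) and 0 lower for GSK484 against CON, with a median log2 fold of 0.24 (0.11 with the trend removed). ADAM10, ADAM9 and ADAM17 are shedding proteases of the cell surface for which type XVII collagen is a known substrate. ADAM10 had 85.8 CPM in GSK484, 61.4 CPM in CON and 106 CPM in NT. ADAM9 had 117 CPM in GSK484, 98.7 CPM in CON and 165 CPM in NT, and ADAM17 had 44.6 CPM in GSK484, 38.0 CPM in CON and 49.6 CPM in NT. All 3 were lowest in CON and highest in NT. The same order was seen in DST, LAMA3, ITGA6, ITGB1, ITGA2, FREM2 and DSP, among other genes followed. The GC content of ADAM10, ADAM9 and ADAM17 was 38.3%, 39.4% and 38.5%. With the trend removed, the log2 fold of ADAM10 for GSK484 against CON was 0.23, against 0.48 (0.43 to 0.53) before. PLAU, the urokinase that activates plasmin, had 178 CPM in GSK484, 142 CPM in CON and 132 CPM in NT, and its log2 fold against NT was 0.43 (0.39 to 0.47). Against CON it was 0.319 (0.28 to 0.35), just short of the rule, but past it with the trend removed (0.36) and in TPM (0.44). For GSK484 against NT, 1 of the 8 protease genes was higher (PLAU) and 1 lower (ADAM9). In that comparison the log2 fold of ADAM9 became −0.31 with the trend removed, short of the rule, against −0.49 before. PLAU kept 0.40. For CON against NT, 0 were higher and 4 lower, namely the 3 ADAM genes and TLL1, which was near the minimum at 1.01 CPM in GSK484, 0.745 CPM in CON and 1.18 CPM in NT. With the trend removed, only ADAM9 of these 4 stayed past the rule, at −0.36, while ADAM10 and TLL1 were at −0.31 each, ADAM17 turned to 0.07, and the median of the list became −0.0071, against −0.17 before.

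Among the other tetraspanins, the family of CD151, 12 reached 1 CPM. Of these, 0 were higher and 0 lower by the rule in any of the 3 comparisons. In GSK484 relative to CON, counting error was exceeded by 2 above 0 and by 6 below 0. The list had a median log2 fold of −0.08, which became 0.0036 with the trend removed. TSPAN15, a tetraspanin that guides ADAM10, had 25.0 CPM in GSK484, 30.0 CPM in CON and 29.2 CPM in NT. TSPAN1 had 176 CPM in GSK484, 204 CPM in CON and 177 CPM in NT, TSPAN6 had 26.5 CPM in GSK484, 29.1 CPM in CON and 30.1 CPM in NT, and CD82, known to restrain cell migration, had 44.7 CPM in GSK484, 37.6 CPM in CON and 39.6 CPM in NT.

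DST and PLEC had the widest ranges of log2 CPM over the libraries, 1.252 and 0.37, and genes with a like pattern were sought among 8352 named protein-coding genes of at least 10 CPM in every library. Likeness was the Euclidean distance of log2 CPM centred on each gene's mean over the 3 libraries. Nearest to DST were VPS13A, a lipid transfer protein gene, at 19.4 CPM in GSK484, 11.0 CPM in CON and 26.0 CPM in NT, NIPBL, the cohesin loader gene, at 20.9, 11.7 and 28.3 CPM in the same libraries, and CCDC88A, at 30.8, 17.5 and 42.8 CPM. Their distances were 0.0164, 0.0209 and 0.026. Nearest to PLEC were ZNF296, at 16.3, 13.9 and 12.6 CPM, NFIC, a nuclear factor I gene, at 125, 105 and 96.2 CPM, and its relative NFIX, at 36.2, 31.0 and 28.4 CPM, with distances of 0.0105, 0.0108 and 0.0165. A pattern over 3 libraries leaves 2 free differences per gene, so many genes can come close by it.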

How the data were processed

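RNA was measured by sequencing in 3 MCF10Ca1h libraries, made per the labels' protocols from TRIzol extracts with a stranded total RNA kit and read as pairs of 125 bp. The authors deposited gene tables of the expected count, an estimate of a gene's reads that is not normalized, per the file headers. They also deposited TPM, which accounts for effective length, per the file headers. The same tables hold a mean transcript length and effective length per gene, per the file headers. RSEM and hg19 are named in the submitters' processing notes. Not given in the sources used here are the RSEM version, aligner, annotation and strand setting, so reads of a gene and of an antisense partner cannot be told apart.

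Expected counts were rounded for intervals and scaled to CPM with TMM factors (edgeR 4.0.16, R 4.3.3) of 1.009 for GSK484, 0.981 for CON and 1.010 for NT. Log2 folds used a prior count of 0.5, with an exact conditional binomial (Clopper-Pearson) 95% interval, and CPM values an exact Poisson interval. Intervals cover counting error only, since PCR copies were not separable. Each comparison took, from all 56632 gene IDs, those whose larger CPM was at least 1. The calculation was tested on simulated data. Symbols, transcript lengths and GC content came from GENCODE 29, of another build than the tables, and GC content was known for 97.2% of measured genes. The trend on GC content and length was fitted to 8874 genes and removed as an alternative. No replicate was available, so no test was made.

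The 9 genes, 6 related lists of 61 entries, 19 marker entries and all alternatives were chosen with earlier results of these data known. The values for the genes of lowest GC content were added after the values were seen. From each related list, up to 4 genes beyond counting error and with the largest absolute log2 fold between GSK484 and CON were named. For the 2 members of widest range, the 3 nearest genes were named. ITGB4, the receptor partner of ITGA6, was named outside this rule after its values were seen, as were BCAM, TLL1, LAMA4, LAMB2 and the chains near 0. EPPK1 and PECAM1 were not analysed here, and some related genes are not reported here.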

Additional observations from a re-analysis of the deposited data

How the results depend on the processing

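None of the calls of DST and PLEC among the 9 genes turned direction under any alternative run, while folds short of the rule did in places, such as those of LAMC1 with the trend removed (−0.02 for GSK484 against CON and 0.03 for CON against NT). No paired analysis was possible because each group has 1 library, and for the same reason no replicate could be left out. For GSK484 against CON, 1185 genes were higher and 592 lower. These became 1833 and 1239 with no minimum CPM, 614 and 132 with a minimum of 10 CPM, 302 and 166 with a 1.5-fold rule, and 150 and 52 among genes of at least 50 CPM. In TPM, 2012 were higher with a pseudocount of 0.1 and 223 lower with a pseudocount of 1, and 689 were higher with the GC and length trend removed. For GSK484 against NT, 669 were higher and 985 lower, against 1225 and 1612 with no minimum, 174 and 442 with a minimum of 10 CPM, 185 and 215 with a 1.5-fold rule, and 29 and 81 at 50 CPM or more. There, 614 were lower in TPM with a pseudocount of 1 and 479 with the trend removed. For CON against NT, 908 were higher and 1931 lower, against 1546 higher with no minimum, 261 and 1240 with a minimum of 10 CPM, 231 and 849 with a 1.5-fold rule, and 62 and 344 at 50 CPM or more. There, 581 and 325 were higher in TPM with pseudocounts of 0.1 and 1, and 807 lower with the trend removed. Calls in TPM use fold and level only, without a counting interval. With a pseudocount of 0.1, the median log2 fold over all genes for GSK484 against CON was 0.10 in TPM, against −0.0055 in counts. Of the 9 genes, TPM with either pseudocount put 3 higher for GSK484 against CON (DST, PLEC and LAMB3), where counts put 1, and 2 higher for GSK484 against NT (PLEC and COL17A1), where counts put 1. For GSK484 against NT, 0 were higher and 0 lower with the trend removed or with a 1.5-fold rule. For CON against NT, 2 were lower (DST and LAMA3) with total-count scaling, with DESeq2 1.42.0 size factors and with the trend removed, where TMM scaling put 1. Of 27 member folds, 18 moved beyond counting error with total-count scaling, 2 with DESeq2 size factors, 17 in TPM with either pseudocount, 19 with the trend removed and 0 with a prior count of 5. Where the cause of a shift is not in the alternative's own construction, the cause was not tested. Depth limits none of the 9 genes, whose log2 folds have counting intervals of at most 0.0355 to either side. The missing replicates do limit them.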
